A study of Mus musculus with 4 samples.

Results

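Astrocyte nuclei were followed in the mouse forebrain without stroke and at 3 times after it. A nucleus was taken as an astrocyte when its barcode held more than 1000 UMIs (UMI, unique molecular identifier, the tag that counts single RNA molecules) and when 11 astrocyte markers (Slc1a3, Gpc5, Slc39a12, Atp13a4, Rgs20, Acsbg1, Bmpr1b, Ntsr2, Gja1, Fgfr3 and Aqp4) together gave at least 8 UMIs and at least 0.5% of its UMIs. Barcodes with 2 or more UMIs of the oligodendrocyte precursor genes Pdgfra, Cspg4 and Neu4, or with 6 or more of 5 genes of motile cilia, were left out, which removed 78 barcodes. The rule took 511 of 8909 barcodes, or 5.74%. Sham held 143 of 2226 (6.42%, exact Clopper-Pearson 95% interval 5.44 to 7.52), day 1 held 57 of 1203 (4.74%, 3.61 to 6.10), day 3 held 238 of 3734 (6.37%, 5.61 to 7.21) and day 7 held 73 of 1746 (4.18%, 3.29 to 5.23). The day 7 interval lay below those of sham and day 3, and the day 1 interval overlapped with every other. Just inside the limit, at 0.5% to 0.6% of UMIs, lay 6, 5, 15 and 9 nuclei of sham, day 1, day 3 and day 7, and just outside, at 0.4% to 0.5%, lay 16, 6, 17 and 14 barcodes. The nuclei were chosen by the UMIs of these markers, so the levels of the markers are no result.

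The study followed how brain cells respond to a permanent MCAO (middle cerebral artery occlusion), made by coagulation and transection of the vessel, which leaves a small infarct in the parietal cortex. The 4 libraries came from male C57Black/6 mice of 3 months, labelled sham control and 1, 3 and 7 days after MCAO, and each was made from 3 injured or sham forebrain hemispheres pooled before nuclei were isolated. Each group was therefore 1 library, no difference has a replicate check, no p-value was computed, and the intervals given hold counting error alone. The infarct is small while the whole hemisphere was profiled, and a pool does not show which of the 3 animals a nucleus came from.

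Astrocytes are the glia that clear glutamate and potassium from around synapses, couple to each other through gap junctions, wrap vessels with water-channel-bearing endfeet and supply neurons with lactate and lipids. After injury they become reactive: they assemble more of the intermediate filaments GFAP and vimentin, secrete acute-phase and complement proteins and, near a lesion, form a scar border. Reactive genes have been grouped into lists called pan-reactive, A1 and A2 after inflammatory and ischemic stimuli. Nuclear RNA reads genes as they are transcribed, and holds many unspliced transcripts.

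Some features of the libraries bear on all values. The library labelled day 3 held more barcodes above 1000 UMIs than the one labelled day 7, 3734 against 1746. The study's own breakdown gives the larger number of nuclei to day 7. Which is right was not tested, other measures of the study were not compared with the labels here, the labels as deposited are kept for every value, and each order of day 3 and day 7 holds for the libraries as labelled. The labels name intact cortex as control tissue and forebrain hemispheres as the collected tissue, and the sham astrocyte nuclei held the most RNA of 8 striatal projection neuron genes, 944 CPM against 364 to 571 in the other libraries (CPM, the UMIs of a gene over all astrocyte nuclei of a library, scaled to a total of 1000000). Without nuclei that also met the markers of another class, described below, the sums were 579, 649, 372 and 485 CPM in sham, day 1, day 3 and day 7, and sham was not the highest. The median astrocyte nucleus had 5375 UMIs at day 1, more than the 3067 of sham, the 3035 of day 3 and the 3590 of day 7. The 4 sums held 597672, 435812, 892862 and 401321 UMIs in the same order of time. Of all barcodes above 1000 UMIs, 0 to 3 were shared by a pair of libraries, and no astrocyte barcode was.

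The label was checked against 12 astrocyte markers that the rule did not use, among them Slc1a2, Aldh1l1, Sox9 and S100b. Their sum was 10604 CPM in sham, 7262 at day 1, 10645 at day 3 and 11432 at day 7 in astrocyte nuclei, against 989 to 1941 CPM in oligodendrocyte nuclei and 1949 to 2377 CPM in the free RNA of empty droplets (100 to 1000 UMIs). The day 1 sum was the lowest. A part of the day 1 nuclei also carried neuronal RNA: 15, 8, 21 and 7 nuclei of sham, day 1, day 3 and day 7 also met the thresholds (at least 8 UMIs and 0.5%) on the markers of another cell class, and the 8 of day 1 held 31.0% of that library's astrocyte UMIs, against 17.1%, 14.2% and 12.7%. At day 1 the other class was interneurons in 7 of the 8. All 9 interneuron markers were detected, none was at 0, and their sum was 2024 CPM at day 1 against 485 to 868 CPM elsewhere. The deepest day 1 nucleus, of 56390 UMIs, held 34.2% of it. Without all such nuclei the sums were 286 CPM at day 1 and 320 to 432 CPM elsewhere, and the 12 astrocyte markers were at 10071 CPM at day 1 against 11192, 11628 and 12545. Values without these nuclei are therefore given beside a part of the day 1 results.

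Of 6057 genes with a mean of at least 30 CPM over the 4 libraries, 230 genes (3.8%) were at least 2-fold higher and 273 (4.51%) at least 2-fold lower at day 1 than in sham. At day 3 the numbers were 91 (1.5%) and 83 (1.37%), and at day 7 they were 130 (2.15%) and 254 (4.19%). The median gene lay at log2 -0.07, -0.04 and -0.06. These shares hold counting scatter and are not calls, since at 30 CPM a gene had about 18 UMIs in sham, 13 at day 1, 27 at day 3 and 12 at day 7. Sums under 3 UMIs were set to 3 in log2 ratios. Of the 48 most extreme genes by day that the naming rule took, 22 stayed past 2-fold under each of 12 other ways of processing and 43 kept their direction. Several of the 48 passed the level filter only through the library in which they were high. Some ways of processing also bring scarce genes to the floor of 3 UMIs, where the library totals alone set the ratio. These numbers are a description and no support for single genes.

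The filament and scar list holds the classic reactive markers. Of its 13 genes 6 passed the level filter, and 4 of these were at least 2-fold higher at day 3 (background 1.5%), 4 at day 7 (2.15%) and 0 at day 1 (3.8%). Their median log2 ratio was -0.11 at day 1, 1.52 at day 3 and 1.28 at day 7. In nuclei of 2000 to 5000 UMIs the median of intermediate filaments and scar, day 7, was 0.12. S100a6 and Thbs4 passed the filter only through the libraries in which they were high, day 3 and day 7, so nothing is read from the counts and medians, which describe the genes that passed and not the whole list.

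Gfap (chromosome 11, 102887336 to 102900912, minus strand, GRCm38), the main intermediate filament of astrocytes, gave 147 CPM in sham, 241 at day 1, 585 at day 3 and 339 at day 7. These came from 88 UMIs in sham, 105 at day 1, 522 at day 3 and 136 at day 7. Day 3 was the highest library and sham the lowest. Against sham this was 1.64-fold (1.22 to 2.20) at day 1, 3.97-fold (3.16 to 5.04) at day 3 and 2.30-fold (1.75 to 3.04) at day 7 (95% counting intervals in parentheses, here and below). The log2 ratio ranged from 1.77 to 2.67 at day 3 over the other settings and from 0.88 to 1.92 at day 7, but from 0.39 to 3.47 at day 1. A gene on the other strand, Gm26668, overlaps Gfap. In oligodendrocyte nuclei Gfap was at 17.6 CPM in sham, 54.1 at day 1, 157 at day 3 and 201 at day 7. In glutamatergic neuron nuclei it was at 73.2 CPM in sham, 68.5 at day 1, 89.5 at day 3 and 98.0 at day 7. Empty droplets held 60.9 CPM in sham, 86.3 at day 1, 196 at day 3 and 134 at day 7. Gfap in astrocyte nuclei exceeded the free RNA in every library.

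Vim (chromosome 2, 13573927 to 13582826, plus strand), which encodes vimentin, the filament of immature and reactive astrocytes, gave 30.1 CPM in sham, 25.2 at day 1, 251 at day 3 and 77.2 at day 7. Sham and day 1 were alike within counting error, and day 3 was 8.33-fold (5.15 to 14.3) and day 7 2.56-fold (1.39 to 4.87) against sham. Free RNA held more Vim than the astrocyte sums in each library. It held 119 CPM in sham, 120.2 at day 1, 286 at day 3 and 123 at day 7. The median UMIs of an empty droplet, added to every nucleus, would give 8.71 CPM in sham, 6.81 at day 1, 28.3 at day 3 and 7.22 at day 7. With free RNA subtracted in proportion the log2 ratios were 4.53 at day 3 and 2.63 at day 7. The true part of free RNA in the nuclei was not measured. Taking nuclei of 2000 to 5000 UMIs brought the day 7 log2 ratio from 1.36 to 0.12, while at day 3 it stayed between 2.11 and 4.53 in every setting.

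The start regions of both filament genes are shown because the genes were high in the same library and because STAT3, a factor known to drive Gfap in reactive astrocytes, binds motifs of the form TTCNNNGAA. The bases run from 250 before to 10 after the RefSeq start (GRCm38.p6), 5′ to 3′ on the gene's strand, and capitals mark the motif. Gfap lies at chr11:102897191-102897450, minus strand, and Vim at chr2:13574061-13574320, plus strand. Both windows lie inside the gene spans given above, which come from another annotation with other starts.
Gfap: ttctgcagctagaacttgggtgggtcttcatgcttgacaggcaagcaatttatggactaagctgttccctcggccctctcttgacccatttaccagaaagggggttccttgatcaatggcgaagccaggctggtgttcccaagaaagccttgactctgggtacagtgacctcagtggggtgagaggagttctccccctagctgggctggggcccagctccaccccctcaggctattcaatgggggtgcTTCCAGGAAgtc
Vim: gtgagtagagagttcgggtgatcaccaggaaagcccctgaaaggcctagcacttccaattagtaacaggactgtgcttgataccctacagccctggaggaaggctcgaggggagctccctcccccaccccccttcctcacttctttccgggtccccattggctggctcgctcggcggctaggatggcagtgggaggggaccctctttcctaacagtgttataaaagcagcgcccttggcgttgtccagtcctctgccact
The Gfap window held 1 match, TTCCAGGAA, which starts 2 bases before the start, and the Vim window held 0. The motif is its own reverse complement in form, so both strands are searched at once, and 2726 of 32851 promoter windows of 300 bases (8.30%) hold it. A match describes letters and is no evidence of binding. RNA for Stat3 itself, with 107 CPM in sham, 115 at day 1, 97.4 at day 3 and 117 at day 7, gave ratios to sham whose counting intervals all included 1.

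S100a6, a small calcium-binding protein of reactive and proliferating cells, showed the largest fold of the list at day 3. Its levels were 6.69 CPM in sham, 4.59 at day 1, 118 at day 3 and 29.9 at day 7. The counts were 4 UMIs in sham, 2 at day 1, 105 at day 3 and 12 at day 7. The day 3 level was 17.6-fold (6.66 to 65.7) and the day 7 level 4.47-fold (1.35 to 19.0) of sham. At day 3 it came from 36 nuclei. Free RNA held 78.1 CPM in sham, 81.3 at day 1, 147 at day 3 and 73.8 at day 7, above the astrocyte sums in each library. The median UMIs of an empty droplet in every nucleus would give 5.74 CPM in sham, 4.60 at day 1, 14.6 at day 3 and 4.32 at day 7. Thbs4, a matrix thrombospondin, was highest at day 7, with 16.7 CPM in sham, 4.59 at day 1, 34.7 at day 3 and 154 at day 7. Its 62 UMIs there lay in 4 nuclei, of which 1 held 44. Tnc, the matrix protein tenascin C, gave 38.5 CPM in sham, 43.6 at day 1, 47.0 at day 3 and 15.0 at day 7, and day 7 was 0.389-fold (0.129 to 0.982) of sham. Below the level filter, Cd44, the hyaluronan receptor, gave 8 UMIs in sham, 3 at day 1, 29 at day 3 and 15 at day 7.

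**Figure D1:**
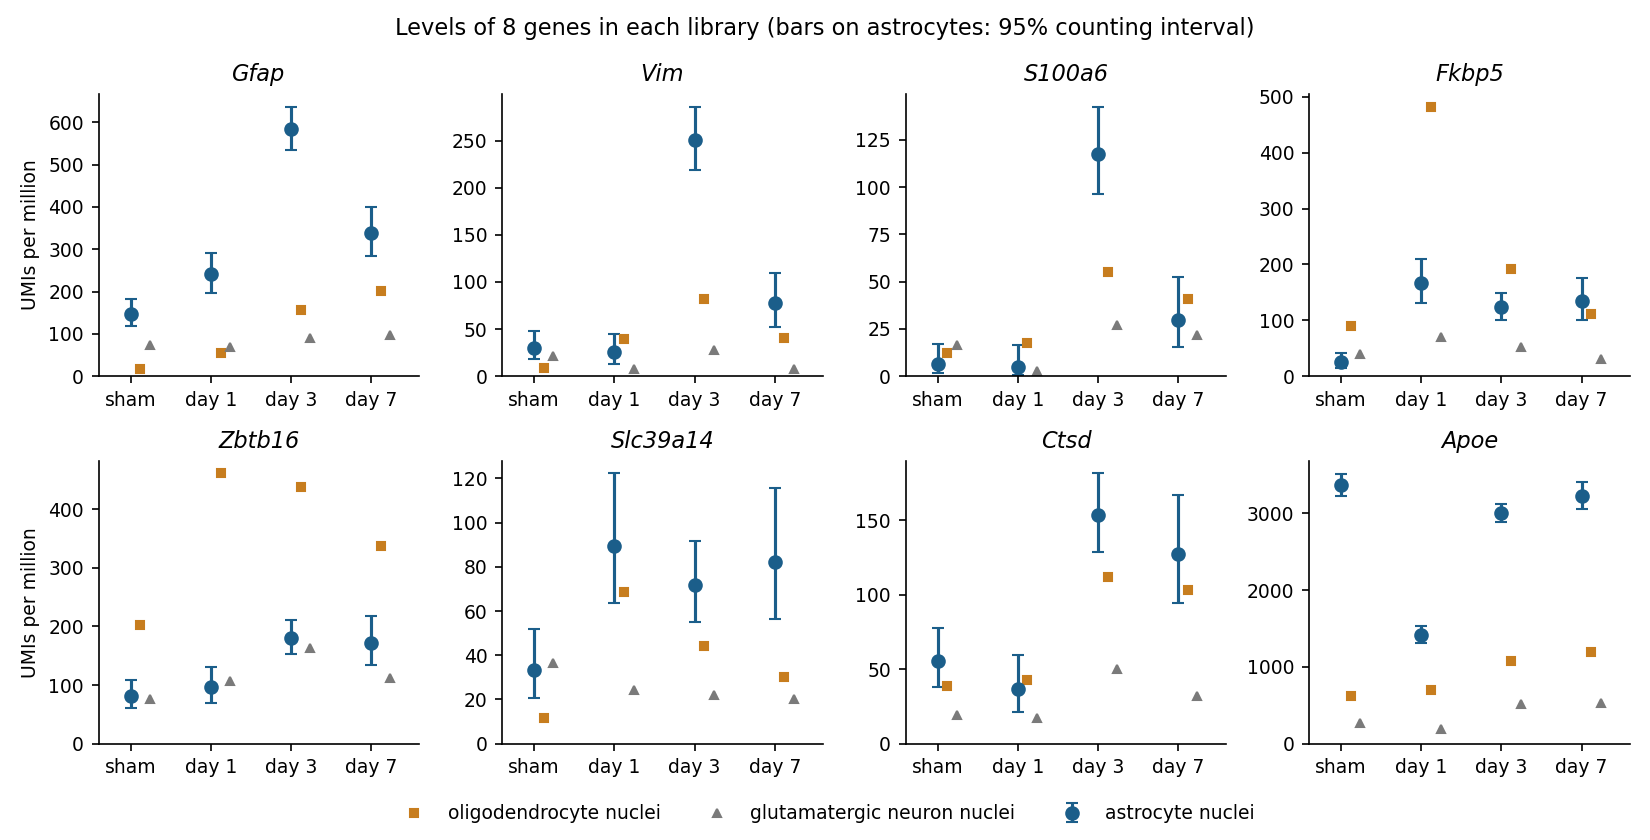
Levels in CPM (y axis) of 8 genes in the 4 libraries (x axis), as 1 sum per library over astrocyte nuclei (circles, bars are 95% counting intervals), oligodendrocyte nuclei (squares) and glutamatergic neuron nuclei (triangles). Gfap, Vim and S100a6 are highest in the day 3 astrocyte sum, Fkbp5 is lowest in sham and Apoe is lowest at day 1.

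The other classic reactive genes sat in few nuclei. Lcn2, which encodes the secreted iron-binding lipocalin 2, gave 2 UMIs in sham, 1 at day 1, 35 at day 3 and 0 at day 7. The day 3 UMIs lay in 9 nuclei, of which 1 held 20. Serpina3n, an acute-phase protease inhibitor, gave 7 UMIs in sham, 5 at day 1, 37 at day 3 and 5 at day 7. At day 3, 13 of its 15 nuclei also held Gfap. C3, the central complement protein, gave 0 UMIs in sham, 0 at day 1, 14 at day 3 and 0 at day 7. At day 3, 1 nucleus held 13 of the 14. That nucleus, of 12787 UMIs, held 79 Gfap UMIs, 45 of Vim and 23 of S100a6, the largest number of each but Gfap in any day 3 astrocyte nucleus. Tgm1, a crosslinking enzyme on the A2 list, gave 0 UMIs in sham, 2 at day 1, 33 at day 3 and 7 at day 7. At day 3, 11 of its 13 nuclei held Gfap. S100a10, another A2 gene, gave 3 UMIs in sham, 4 at day 1, 24 at day 3 and 8 at day 7. By level, 2 of 13 pan-reactive genes passed the filter (Gfap and Vim), 2 of 12 A1 genes (Fkbp5 and Ggta1) and 0 of 12 A2 genes. All 4 that passed were at least 2-fold higher at day 7 (background 2.15%), and Gfap, Vim and Fkbp5 were at day 3 (1.5%). Ggta1 was below 30 CPM in the other 3 libraries and passed the filter through day 7, so nothing is read from its count. With genes of a mean of at least 10 CPM taken in, the A1 median at day 3 was at log2 -0.40.

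Of the 13 genes of the secreted reactive and complement list 7 passed the filter, with medians of -0.69, 0.43 and 0.17, and 0, 1 and 2 were at least 2-fold higher (backgrounds 3.8%, 1.5% and 2.15%). At day 1, 3 were at least 2-fold lower (4.51%). Complement C4b, which reactive astrocytes and oligodendrocytes are known to make, gave 38.5 CPM in sham, 48.2 at day 1, 71.7 at day 3 and 87.2 at day 7. It was 1.86-fold (1.14 to 3.14) of sham at day 3 and 2.27-fold (1.30 to 4.02) at day 7. Oligodendrocyte nuclei gave ratios of 2.14 and 2.53, and astrocyte nuclei of 2000 to 5000 UMIs a day 7 log2 ratio of -0.01 (C4b, day 7). A2m, the protease inhibitor alpha-2-macroglobulin, gave 16.7 CPM in sham, 78.0 at day 1, 68.3 at day 3 and 72.3 at day 7. Its ratios were 4.66-fold (2.25 to 10.6), 4.08-fold (2.08 to 8.94) and 4.32-fold (2.05 to 9.93). It was higher than sham in each library after MCAO, and at day 1 its 34 UMIs came from 7 nuclei, 16 of them from 1. Ggta1, a glycosyltransferase on the A1 list, was highest at day 7, with 15.1 CPM in sham, 27.5 at day 1, 29.1 at day 3 and 69.8 at day 7. The day 7 ratio was 4.63-fold (2.13 to 11.2).

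Fkbp5 was at least 4.91-fold higher than sham at all 3 times. It lies at chromosome 17, 28399094 to 28517527, minus strand, with 4 other annotated genes overlapping it, and encodes a cochaperone that binds the glucocorticoid receptor and is itself switched on by glucocorticoids. Astrocyte nuclei held 25.1 CPM in sham, 168 at day 1, 123 at day 3 and 135 at day 7. The RNA came from 12 nuclei in sham, 27 at day 1, 73 at day 3 and 30 at day 7. The ratios were 6.67-fold (3.79 to 12.5), 4.91-fold (2.85 to 9.07) and 5.36-fold (2.98 to 10.2), and in all 12 other settings each stayed at log2 2.22 or more. Among nuclei, 8.39% had an Fkbp5 UMI in sham, 47.4% at day 1, 30.7% at day 3 and 41.1% at day 7. Thinned to 1000 UMIs per nucleus, the shares were 2.10%, 17.5%, 16.0% and 10.96%. At that depth they were 3.09%, 11.4%, 3.06% and 2.35% in glutamatergic and 9.69%, 26.6%, 18.6% and 11.97% in oligodendrocyte nuclei. The 10% of nuclei with the most Fkbp5 held 52.7% to 53.7% of the UMIs after MCAO, against 70.7% to 78.7% for Gfap.

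Oligodendrocyte nuclei were also higher in Fkbp5 at day 1, with 90.3 CPM in sham, 483 at day 1, 193 at day 3 and 111 at day 7. They were within 1.23-fold of sham at day 7, whereas the astrocyte ratio at day 7 was 5.36. Glutamatergic neuron nuclei held 40.2 CPM in sham, 70.0 at day 1, 52.2 at day 3 and 30.5 at day 7, no more than 1.74-fold above sham. In nuclei with at least 3 Gfap UMIs Fkbp5 gave 22.9 CPM in sham, 217 at day 1, 101 at day 3 and 81.8 at day 7, and in nuclei with 0 it gave 23.7 CPM in sham, 131 at day 1, 113 at day 3 and 139 at day 7. The counting interval of the ratio between the 2 kinds of nuclei included 1 in each library. The sham value with Gfap rests on 2 UMIs in 8 nuclei.

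No other gene of the glucocorticoid list was at least 2-fold higher at all 3 times, but Zbtb16 was at days 3 and 7 and Mt2 at day 3. Of 18 genes 9 passed the level filter, and 1, 3 and 2 were at least 2-fold higher at days 1, 3 and 7 (backgrounds 3.8%, 1.5% and 2.15%), with medians of -0.20, 0.06 and 0.22. Zbtb16, a transcription factor induced by the receptor, gave 82.0 CPM in sham, 96.4 at day 1, 180.3 at day 3 and 172 at day 7. It was 2.20-fold (1.59 to 3.09) of sham at day 3 and 2.10-fold (1.43 to 3.09) at day 7. It was also higher in oligodendrocyte (2.17-fold at day 3) and glutamatergic nuclei (2.16-fold). Tsc22d3, which encodes the leucine zipper protein GILZ, was lower at day 1 (log2 -1.02, and -0.70 without nuclei of another class) and otherwise near sham, with 107 CPM in sham, 52.8 at day 1, 112 at day 3 and 125 at day 7. Sgk1, a kinase, gave 78.6 CPM in sham, 62.0 at day 1, 66.1 at day 3 and 44.9 at day 7. RNA for the receptor itself, Nr3c1, was 0.546-fold (0.362 to 0.807) of sham at day 1 and close to it later, with 156 CPM in sham, 84.9 at day 1, 146 at day 3 and 152 at day 7.

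The list of metal handling and oxidative stress had 20 genes, of which 14 passed the filter. Of these 10 lay below sham at day 1, 3 at day 3 and 9 at day 7, with medians of -0.22, 0.32 and -0.34, and 1, 2 and 2 were at least 2-fold higher (backgrounds 3.8%, 1.5% and 2.15%). Slc39a14, a zinc and iron importer of the plasma membrane, gave 33.5 CPM in sham, 89.5 at day 1, 71.7 at day 3 and 82.2 at day 7. The ratios were 2.67-fold (1.52 to 4.84), 2.14-fold (1.28 to 3.74) and 2.46-fold (1.37 to 4.52). At day 1 it was past 2-fold in all 12 other settings, though with thinned nuclei at log2 1.33, a value that sums both set to 3 UMIs also give. At day 7 the nuclei of 2000 to 5000 UMIs gave a log2 ratio of -0.27. Glutamatergic nuclei were below sham at each time, at 0.663, 0.595 and 0.556-fold. The metallothioneins, small cysteine-rich proteins that hold zinc and copper, were highest at day 3. Mt2 gave 223 CPM in sham, 195 at day 1, 509.6 at day 3 and 287 at day 7. Mt1 gave 862 CPM in sham, 729.7 at day 1, 1425 at day 3 and 832 at day 7. Fth1, the iron-storing ferritin heavy chain, gave 552 CPM in sham, 309.8 at day 1, 1051 at day 3 and 815 at day 7, lowest at day 1.

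Ctsd, the lysosomal protease cathepsin D, gave 55.2 CPM in sham, 36.7 at day 1, 153 at day 3 and 127 at day 7. That was 2.78-fold (1.89 to 4.20) of sham at day 3 and 2.30-fold (1.46 to 3.68) at day 7. Both ratios stayed past 2-fold in each of the 12 other settings. Ctsd was also higher in oligodendrocyte nuclei (2.91 and 2.68-fold), in glutamatergic nuclei (2.64 and 1.68-fold) and in empty droplets. The droplets held 175 CPM in sham, 186 at day 1, 426 at day 3 and 364 at day 7, all above the astrocyte sums. Microglia also express this gene. Their 10 markers summed to 129, 177, 235 and 553 CPM in astrocyte nuclei of sham, day 1, day 3 and day 7, with Tmem119 at 0 in sham and Csf1r at 0 at day 1. Their part in the Ctsd values was not tested.

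Genes of astrocyte housekeeping went both ways at day 3 and day 7. Of the 13 genes of glutamate and GABA uptake all passed the filter, and 0 were past 2-fold at any time in either direction, against backgrounds of 1.37% to 4.51%. Their median log2 ratio was -0.39 at day 1, -0.06 at day 3 and 0.06 at day 7, where single genes ran from -0.75 to 0.99. A count of 0 among 13 genes is near the background. Slc1a2, the main glutamate transporter of forebrain astrocytes, gave 5779 CPM in sham, 4272 at day 1, 5811 at day 3 and 6680.4 at day 7. Glul, glutamine synthetase, gave 768 CPM in sham, 422 at day 1, 603 at day 3 and 610.5 at day 7. The GABA transporter gene Slc6a11 gave 343 CPM in sham, 218 at day 1, 388 at day 3 and 369 at day 7. All 3 were lowest at day 1, where 12 of the 13 genes lay below sham.

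The water, ion and gap junction list had 15 of 17 genes above the filter, of which 0 were at least 2-fold higher at any time and 1 at least 2-fold lower, at day 1 (background 4.51%). Medians were -0.42, 0.05 and 0.05, and at day 7 the genes ran from -0.96 to 0.41. Kcnj10, the inward rectifier that buffers potassium, gave 102 CPM in sham, 101 at day 1, 137 at day 3 and 127 at day 7. Slc4a4, the sodium bicarbonate cotransporter, gave 1645 CPM in sham, 1053 at day 1, 1877 at day 3 and 1707 at day 7. The gene past 2-fold was Mlc1, an endfoot membrane protein, at 134 CPM in sham, 62.0 at day 1, 122 at day 3 and 89.7 at day 7. Its day 1 log2 ratio of -1.11 was past 2-fold in 6 of the 12 other settings, was -0.73 without nuclei of another class and reversed to 0.69 with thinned nuclei. Gjb6, which encodes connexin 30, stayed within counting error of sham at each time, with 132 CPM in sham, 110.1 at day 1, 123 at day 3 and 154 at day 7.

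Transcription factors of astrocyte identity followed the same order. Of 23 genes 19 passed the filter, and 18 of them lay below sham at day 1, with a median of -0.46. The medians at days 3 and 7 were 0.01 and 0.00. Sox9 gave 137 CPM in sham, 98.7 at day 1, 134 at day 3 and 117 at day 7. Nfia gave 1305 CPM in sham, 1166 at day 1, 1524 at day 3 and 1458 at day 7. Rfx4 gave 271 CPM in sham, 181 at day 1, 236 at day 3 and 232 at day 7, and the day 1 level was the lowest of each. Id4, an inhibitor of basic helix-loop-helix factors, was at least 2-fold lower at days 1 and 7 and less than that at day 3, with 212 CPM in sham, 96.4 at day 1, 160.2 at day 3 and 97.2 at day 7. Receptor genes of astrocytes, such as the metabotropic glutamate receptor Grm3 at 1012 CPM in sham, 831 at day 1, 1082 at day 3 and 954 at day 7, had a median of -0.29 at day 1 and 0.00 and -0.07 later, with 0 of 15 past 2-fold (backgrounds 1.37% to 4.51%), a count near the background.

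**Figure D2:**
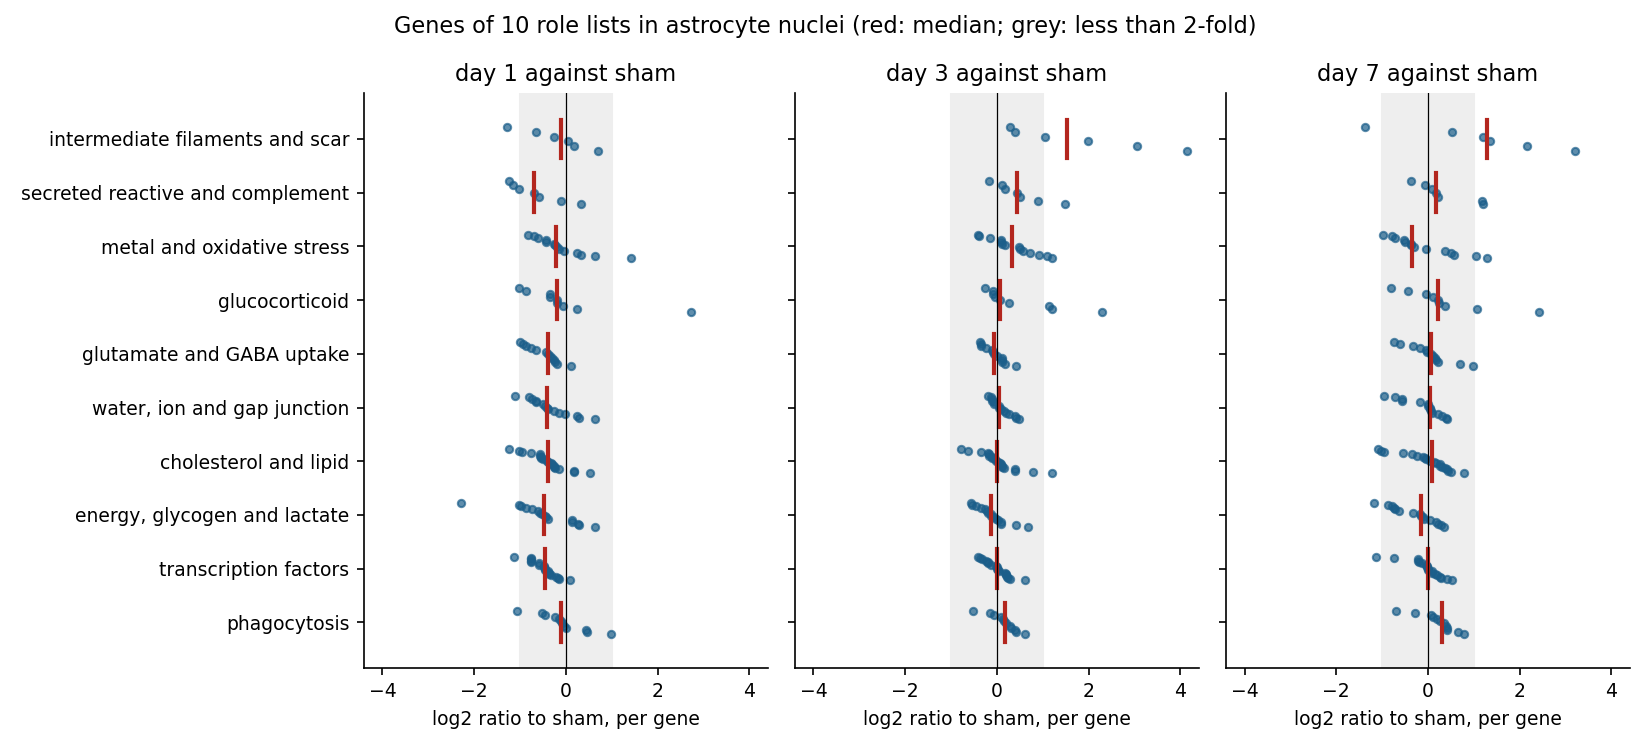
Each point is a gene that passed the level filter, placed by its log2 ratio to sham in astrocyte nuclei (x axis) on 10 lists by role (y axis), at day 1, day 3 and day 7; red lines are medians and the grey band is less than 2-fold. The filament list, with medians of 1.52 and 1.28 at days 3 and 7, includes S100a6 and Thbs4, which passed the filter through the libraries in which they were high, and most housekeeping lists lie left of 0 at day 1.

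The day 1 medians of the housekeeping lists moved toward sham or past it in several other settings. Without the nuclei that also met another class, the day 1 medians were -0.07 for glutamate and GABA uptake, -0.09 for water, ions and gap junctions, -0.18 for transcription factors, -0.09 for cholesterol and lipids and 0.03 for receptors. Settings of depth that kept these nuclei moved the medians as well. In nuclei of 2000 to 5000 UMIs the water, ion and gap junction median was -0.012 and that of cholesterol and lipids 0.32. Thinning to 1000 UMIs brought the former to -0.14, and equal weight of nuclei to -0.17. The part of the mixed nuclei and of depth in the day 1 difference was not tested.

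The secreted lipid carriers and cystatin C were lower at day 1. Apoe, the lipoprotein that carries cholesterol between brain cells, gave 3363 CPM in sham, 1416 at day 1, 3003 at day 3 and 3222 at day 7, from 2010 UMIs in sham, 617 at day 1, 2681 at day 3 and 1293 at day 7. It was 0.421-fold (0.384 to 0.461) of sham at day 1, against 0.893-fold (0.842 to 0.946) at day 3 and 0.958-fold (0.893 to 1.03) at day 7. Clu, the chaperone and lipoprotein clusterin, gave 475 CPM in sham, 234 at day 1, 516 at day 3 and 536 at day 7. Cst3, the secreted protease inhibitor cystatin C, gave 1268 CPM in sham, 567 at day 1, 1428 at day 3 and 1473 at day 7. Both matched Apoe in being lowest at day 1. Without the nuclei that also met another class, the day 1 log2 ratios were -0.89, -0.66 and -0.75 for the 3 genes, each under 2-fold. Thinned to 1000 UMIs they were -0.34, -0.40 and -0.33, and in nuclei of 2000 to 5000 UMIs -0.32, -0.28 and -0.51. In nuclei with at least 3 Gfap UMIs Apoe gave 8580.1 CPM in sham, 4766 at day 1, 5247 at day 3 and 7333 at day 7. In nuclei with 0 it gave 2187 CPM in sham, 880.3 at day 1, 1977 at day 3 and 1452 at day 7, so day 1 was below sham in both. All 8 day 1 nuclei that met another class were among those with 0. The sham value with Gfap rests on 8 nuclei, and 1 sham nucleus held 406 of the 2010 Apoe UMIs. Free RNA held 2069 CPM in sham, 1762 at day 1, 2601 at day 3 and 2559.9 at day 7. In oligodendrocyte nuclei Apoe was at 1.12-fold of sham at day 1 and in glutamatergic nuclei at 0.735-fold.

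The cholesterol and lipid list as a whole had 20 of 25 genes above the filter, with medians of -0.39, 0.00 and 0.09. Hmgcs1, an early enzyme of cholesterol synthesis, gave 102 CPM in sham, 68.8 at day 1, 66.1 at day 3 and 52.3 at day 7, with 0.513-fold (0.297 to 0.854) at day 7. Abca1, the cholesterol exporter, was higher at day 7, 1.72-fold (1.32 to 2.23), with 186 CPM in sham, 158 at day 1, 243 at day 3 and 319 at day 7. Fabp7, the fatty acid carrier of radial glia and astrocytes, was highest at day 3, 2.31-fold (1.42 to 3.90) of sham, with 36.8 CPM in sham, 29.8 at day 1, 85.1 at day 3 and 49.8 at day 7.

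**Figure D3:**
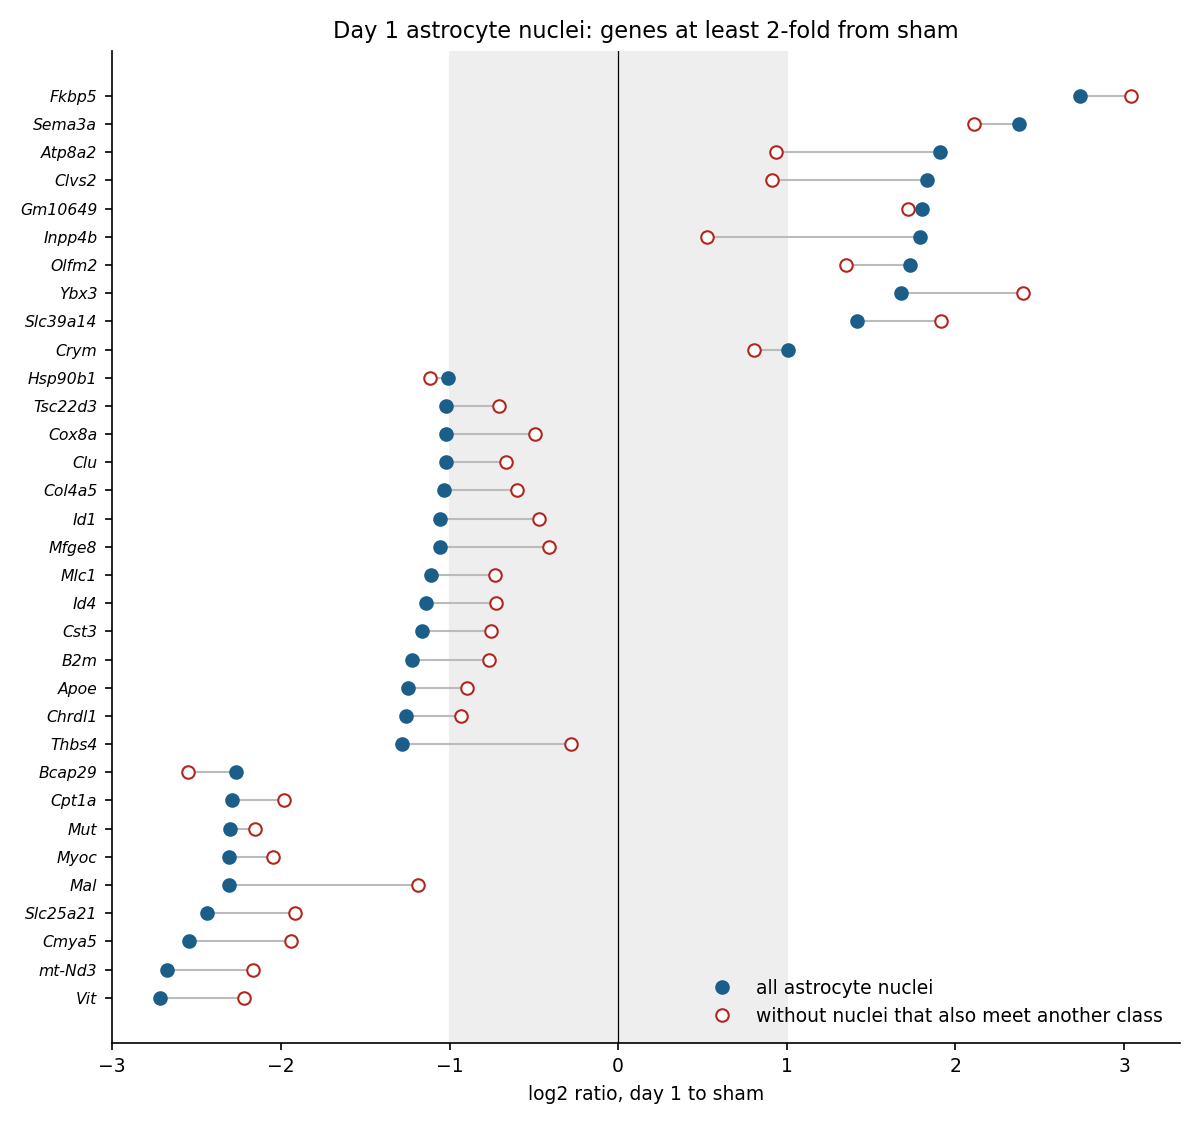
Log2 ratio of day 1 to sham (x axis) for named genes and list genes past 2-fold (y axis), in all astrocyte nuclei (filled) and without those that also met the thresholds of another class (open); the grey band is less than 2-fold. Fkbp5 and Slc39a14 lie further right without these nuclei, whereas Atp8a2, Clvs2 and Inpp4b move inside the band on the higher side and Apoe, Clu, Cst3, Mlc1 and Id4 on the lower side.

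Cpt1a, Slc25a21 and Mut were among the 8 genes that the ranking named as lower at day 1. Cpt1a, which admits fatty acids to mitochondria, gave 78.6 CPM in sham, 16.1 at day 1, 67.2 at day 3 and 34.9 at day 7. That was 0.204-fold (0.0779 to 0.455) of sham at day 1 and 0.444-fold (0.226 to 0.820) at day 7. Without the nuclei that met another class the day 1 log2 ratio was -1.98. Slc25a21, a mitochondrial carrier of oxodicarboxylates, gave 112 CPM in sham, 20.7 at day 1, 73.9 at day 3 and 92.2 at day 7. At 0.184-fold (0.0807 to 0.371) of sham at day 1 it was past 2-fold in each of the 12 other settings. Mut, the mitochondrial methylmalonyl-CoA mutase, gave 45.2 CPM in sham, 9.18 at day 1, 38.1 at day 3 and 34.9 at day 7. It was 0.203-fold (0.0517 to 0.583) of sham at day 1, but the thinned nuclei gave a log2 ratio of -0.41. The counts were low, 7, 9 and 4 UMIs at day 1 for the 3 genes.

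The energy list, which includes Cpt1a, had 16 of 20 genes above the filter. At day 1, 5 of the 16 lay above sham and 11 below. The list had 2 genes at day 1 and 1 at day 7 that were at least 2-fold lower (backgrounds 4.51% and 4.19%). Its medians were -0.49, -0.14 and -0.16, and -0.39 at day 1 without the nuclei of another class. Aldoc, the brain aldolase, gave 371 CPM in sham, 252 at day 1, 395 at day 3 and 381 at day 7. Gys1, glycogen synthase, gave 63.6 CPM in sham, 98.7 at day 1, 60.5 at day 3 and 59.8 at day 7, highest at day 1. Cox8a, a subunit of cytochrome oxidase, gave 238 CPM in sham, 117 at day 1, 377 at day 3 and 212 at day 7. Its day 1 log2 ratio was -1.02, and -0.49 without nuclei of another class. RNA from the mitochondrial genome made 1.19%, 0.734%, 2.00% and 2.09% of astrocyte UMIs in sham, day 1, day 3 and day 7. It is not part of the nucleus and marks cytoplasm or free RNA carried along.

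Of the other genes that the ranking named at day 1, several kept their place without the nuclei of mixed RNA and several did not. Sema3a, a secreted axon repellent, gave 23.4 CPM in sham, 122 at day 1, 31.4 at day 3 and 29.9 at day 7. Olfm2 gave 20.1 CPM in sham, 66.5 at day 1, 28 at day 3 and 17.4 at day 7. Ybx3, an RNA-binding cold shock protein, gave 15.1 CPM in sham, 48.2 at day 1, 26.9 at day 3 and 32.4 at day 7. All 3 passed the level filter only through day 1. They were past 2-fold in each setting, but with thinned nuclei Olfm2 and Ybx3 were at log2 1.33. That is the value which sums both set to the floor of 3 UMIs give, so nothing is read from the number of settings. Atp8a2, a phospholipid flippase, Clvs2, a clavesin of neurons, and Inpp4b, a lipid phosphatase, were at log2 1.91, 1.83 and 1.79, and at 0.94, 0.91 and 0.52 without the nuclei that met another class. The noncoding gene Gm10649, which overlaps Nr3c2 on the other strand, gave 21.8 CPM in sham, 75.7 at day 1, 19.0 at day 3 and 29.9 at day 7. On the lower side, Vit gave 45.2 CPM in sham, 6.88 at day 1, 33.6 at day 3 and 37.4 at day 7. Cmya5 gave 40.2 CPM in sham, 6.88 at day 1, 49.3 at day 3 and 59.8 at day 7. Bcap29 gave 55.2 CPM in sham, 11.5 at day 1, 42.6 at day 3 and 34.9 at day 7. All 3 rest on few day 1 UMIs. Mal, a myelin gene, gave 56.9 CPM in sham, 11.5 at day 1, 82.9 at day 3 and 37.4 at day 7. That was below its level in free RNA, 362 CPM in sham, 305 at day 1, 332 at day 3 and 351 at day 7. The day 1 log2 ratio of Mal was -1.19 without nuclei of another class, and it reversed to 0.45 with free RNA subtracted in proportion and to 0.10 with thinned nuclei.

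At day 3 the lower genes included Pde2a, a phosphodiesterase of cyclic nucleotides, with 82.0 CPM in sham, 36.7 at day 1, 14.6 at day 3 and 52.3 at day 7. The day 3 ratio was 0.178-fold (0.0884 to 0.332). Aste1 gave 48.5 CPM in sham, 57.4 at day 1, 12.3 at day 3 and 44.9 at day 7, with a day 3 ratio of 0.254-fold (0.114 to 0.524). Iqck, a calmodulin-binding protein gene, was lower at day 3, 0.346-fold (0.215 to 0.547), and at day 7, 0.180-fold (0.0692 to 0.394). Its levels were 97.0 CPM in sham, 84.9 at day 1, 33.6 at day 3 and 17.4 at day 7. All 3 held in each of the 12 other settings, all overlap other genes, and the oligodendrocyte and glutamatergic ratios of Pde2a at day 3 were 1.39 and 1.15. Rgs9 and Pde10a, genes of striatal projection neurons, were lower after MCAO. Rgs9 gave 119 CPM in sham, 41.3 at day 1, 33.6 at day 3 and 24.9 at day 7. Pde10a gave 626 CPM in sham, 376 at day 1, 214 at day 3 and 344 at day 7. Both are among the 8 striatal genes summed above, so their order is a part of that sum and no separate result. At day 3 each was past 2-fold in 8 of the 12 other settings. Without the nuclei that met another class their day 3 log2 ratios were -0.999 and -0.68. Gm37340, an unclassified transcript, and Gm28376, an antisense gene, were at log2 -1.86 and -1.66, and at -1.49 and -0.045 without the nuclei that met another class.

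The ribosomal protein gene Rps19 gave 18.4 CPM in sham, 48.2 at day 1, 85.1 at day 3 and 69.8 at day 7. Rpl7a, another, gave 21.8 CPM in sham, 22.9 at day 1, 65.0 at day 3 and 37.4 at day 7. Both were highest at day 3, but Rps19 was higher by 4.93-fold in oligodendrocyte and 3.54-fold in glutamatergic nuclei too, and Rpl7a by 2.03 and 2.01-fold. Free RNA exceeded the astrocyte sums of both in each library. For Rps19 it was 136 CPM in sham, 264 at day 1, 196 at day 3 and 187 at day 7. For Rpl7a it was 175 CPM in sham, 209 at day 1, 177 at day 3 and 138 at day 7. Abhd17a, which removes palmitate from proteins, gave 15.1 CPM in sham, 20.7 at day 1, 50.4 at day 3 and 34.9 at day 7. The mitochondrial gene mt-Nd3 gave 140 UMIs in sham, 16 at day 1, 0 at day 3 and 49 at day 7 in astrocyte nuclei. Its absence at day 3 was shared by the whole library, since 1 UMI was counted in all its 3734 barcodes and 0 in the empty droplets, whereas mt-Nd4 had 33944.

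At day 7 the higher genes included Ptprj, a receptor tyrosine phosphatase, with 104 CPM in sham, 266 at day 1, 249 at day 3 and 379 at day 7. It was higher than sham at all times, 2.57-fold (1.87 to 3.55), 2.40-fold (1.80 to 3.23) and 3.65-fold (2.7 to 4.99), and in glutamatergic nuclei at day 7 it was within 1.14-fold of sham. In oligodendrocyte nuclei it was 2.35-fold of sham at day 7. Lztr1, an adaptor of a ubiquitin ligase, gave 16.7 CPM in sham, 27.5 at day 1, 37.0 at day 3 and 64.8 at day 7. Col4a2, a chain of basement membrane collagen, gave 15.1 CPM in sham, 32.1 at day 1, 33.6 at day 3 and 52.3 at day 7. Both stayed past 2-fold at day 7 in each setting, but both passed the level filter only through day 7, so nothing is read from the number of settings. Vessel cells also make Col4a2. The 9 endothelial markers summed to 65.3, 20.7, 59.4 and 242 CPM in astrocyte nuclei of sham, day 1, day 3 and day 7, with Pecam1, Ly6c1 and Adgrl4 at 0 at day 1. The day 3 sum lacked Abcb1a and Mecom, and the day 7 sum lacked Cdh5. Their part in the Col4a2 values was not tested. Rhd gave 8.37 CPM in sham, 112 at day 1, 4.48 at day 3 and 37.4 at day 7, with 85.7% of its day 1 UMIs in 1 nucleus. On the lower side, Arl13b, a GTPase of cilia, gave 66.9 CPM in sham, 27.5 at day 1, 26.9 at day 3 and 15.0 at day 7. Flrt3 gave 45.2 CPM in sham, 43.6 at day 1, 29.1 at day 3 and 9.97 at day 7. A830080D01Rik gave 36.8 CPM in sham, 52.8 at day 1, 31.4 at day 3 and 4.98 at day 7. The pseudogene Tmem181b-ps gave 33.5 CPM in sham, 48.2 at day 1, 40.3 at day 3 and 7.48 at day 7. The day 7 level was the lowest of each. Ubb, a ubiquitin gene, gave 171 CPM in sham, 80.3 at day 1, 106 at day 3 and 37.4 at day 7. It was lower at day 7 in oligodendrocyte (0.308-fold), glutamatergic (0.364-fold) and free RNA as well. With free RNA subtracted in proportion the day 7 log2 ratio of Ubb in astrocyte nuclei reversed, from -2.19 to 0.61.

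The gp130 and STAT3 list had 6 of 12 genes above the filter and 0 past 2-fold (backgrounds 1.37% to 4.51%), from which nothing is read at so few genes. Osmr, the oncostatin M receptor, below the filter, gave 6 UMIs in sham, 11 at day 1, 18 at day 3 and 16 at day 7. Il6ra, the interleukin 6 receptor, gave 0 UMIs in sham, 1 at day 1, 13 at day 3 and 10 at day 7. Growth factor, Notch, BMP and Shh genes (16 of 23) had medians of -0.36, -0.12 and -0.01. The member past 2-fold on the higher side at day 7 was Tgfbr1, a TGF-beta receptor, with 30.1 CPM in sham, 29.8 at day 1, 60.5 at day 3 and 92.2 at day 7. The nuclei of 2000 to 5000 UMIs reversed it (log2 -0.33). Phagocytosis genes (12 of 13) had medians of -0.10, 0.18 and 0.31, and 0 were at least 2-fold higher at any time (backgrounds 1.5% to 3.8%). Mfge8, an opsonin, was the 1 gene at least 2-fold lower, at day 1 (log2 -1.06, background 4.51%). It was past 2-fold in 4 of the 12 other settings. The log2 ratio was -0.41 without nuclei of another class and 0.39 in nuclei of 2000 to 5000 UMIs. Mertk, an engulfment receptor, gave 910.2 CPM in sham, 856 at day 1, 1118 at day 3 and 1037 at day 7. Megf10, another, gave 166 CPM in sham, 225 at day 1, 180.3 at day 3 and 179 at day 7. Matrix and synaptogenic genes (16 of 21) had medians of -0.48, 0.01 and -0.05, and 0, 1 and 0 were at least 2-fold higher (backgrounds 3.8%, 1.5% and 2.15%) while 2, 1 and 1 were at least 2-fold lower (4.51%, 1.37% and 4.19%). Chrdl1, which matures synapses, gave 38.5 CPM in sham, 16.1 at day 1, 41.4 at day 3 and 39.9 at day 7.

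In the hypoxia list (9 of 17) Vegfa, the vessel growth factor, was lower at day 7, 0.414-fold (0.266 to 0.625), with 181 CPM in sham, 154 at day 1, 165 at day 3 and 74.8 at day 7. Egln1, an oxygen-sensing prolyl hydroxylase, was higher, 2.51-fold (1.38 to 4.68), with 31.8 CPM in sham, 32.1 at day 1, 58.2 at day 3 and 79.7 at day 7. Nfe2l2, the factor of the antioxidant response, gave 38.5 CPM in sham, 48.2 at day 1, 53.8 at day 3 and 79.7 at day 7. Among 18 heat shock and unfolded protein genes 7 passed. Hsp90b1, a chaperone of the endoplasmic reticulum, gave 97.0 CPM in sham, 48.2 at day 1, 105 at day 3 and 115 at day 7. Only 2 of 20 immediate early genes and 2 of 15 class I antigen and interferon genes passed. Of the latter B2m, the class I light chain, gave 26.8 CPM in sham, 11.5 at day 1, 38.1 at day 3 and 57.3 at day 7, highest at day 7.

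Cyclin D2 and D3, which start the cell cycle, were the 2 of 18 proliferation genes above the filter. Ccnd2 gave 30.1 CPM in sham, 25.2 at day 1, 63.8 at day 3 and 32.4 at day 7. It was 2.12-fold (1.23 to 3.83) of sham at day 3, past 2-fold in all 12 other settings. Its levels elsewhere lay near the filter of 30 CPM, which it passed through day 3, so nothing is read from the number of settings. Ccnd3 gave 112 CPM in sham, 165 at day 1, 160.2 at day 3 and 232 at day 7, highest at day 7. Genes of dividing cells were barely counted. Top2a gave 0 UMIs in sham, 1 at day 1, 9 at day 3 and 1 at day 7. Mki67 gave 0 UMIs in sham, 2 at day 1, 2 at day 3 and 1 at day 7.

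Gfap RNA was counted in a part of the nuclei. A Gfap UMI was found in 18.2% of the sham nuclei (exact interval 12.2 to 25.5) and 38.6% of the day 1 nuclei (26.0 to 52.4). The day 3 share was 44.1% (37.7 to 50.7) and the day 7 share 34.2% (23.5 to 46.3). With each nucleus thinned to 1000 UMIs the shares were 7.69% (3.90 to 13.3), 14.04% (6.26 to 25.8), 23.9% (18.7 to 29.9) and 15.1% (7.77 to 25.4). Day 3 was above sham without overlap in both forms. Day 7 overlapped with sham in both forms, and day 1 once thinned. At the same 1000 UMIs, oligodendrocyte nuclei gave 0.855%, 4.79%, 8.71% and 5.50%, and glutamatergic neuron nuclei 5.15%, 9.09%, 11.8% and 11.8%. Unthinned medians were 1953 to 3094 UMIs in the former and 6533 to 14412 in the latter. Both classes should lack the gene, so their shares are read as background. At day 3 alone was the lower astrocyte bound above the share in glutamatergic nuclei, whereas it was above the share in oligodendrocyte nuclei in each library.

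The Gfap UMIs themselves lay in few nuclei. The 10% of nuclei with the most held 87.5% of them in sham, 71.4% at day 1, 70.7% at day 3 and 78.7% at day 7. Nuclei with at least 3 Gfap UMIs numbered 8, 9, 44 and 12, or 5.59%, 15.8%, 18.5% and 16.4%, and they held 77.3% to 87.5% of the UMIs. The 3 libraries after MCAO had like shares of such nuclei, and the sham share was the lowest. At day 1 these 9 nuclei had a median of 4622 UMIs, less than the 5459 of the nuclei with 0 Gfap UMIs, whereas in the other libraries they were deeper (6390.5 against 2942 in sham, 4202 against 2567 at day 3, 9969 against 3320 at day 7). The day 1 ratio of Gfap moved with the weight given to nuclei. It was log2 0.71 in the sums, 1.11 without nuclei of another class and 2.39 with every nucleus of equal weight.

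**Figure D4:**
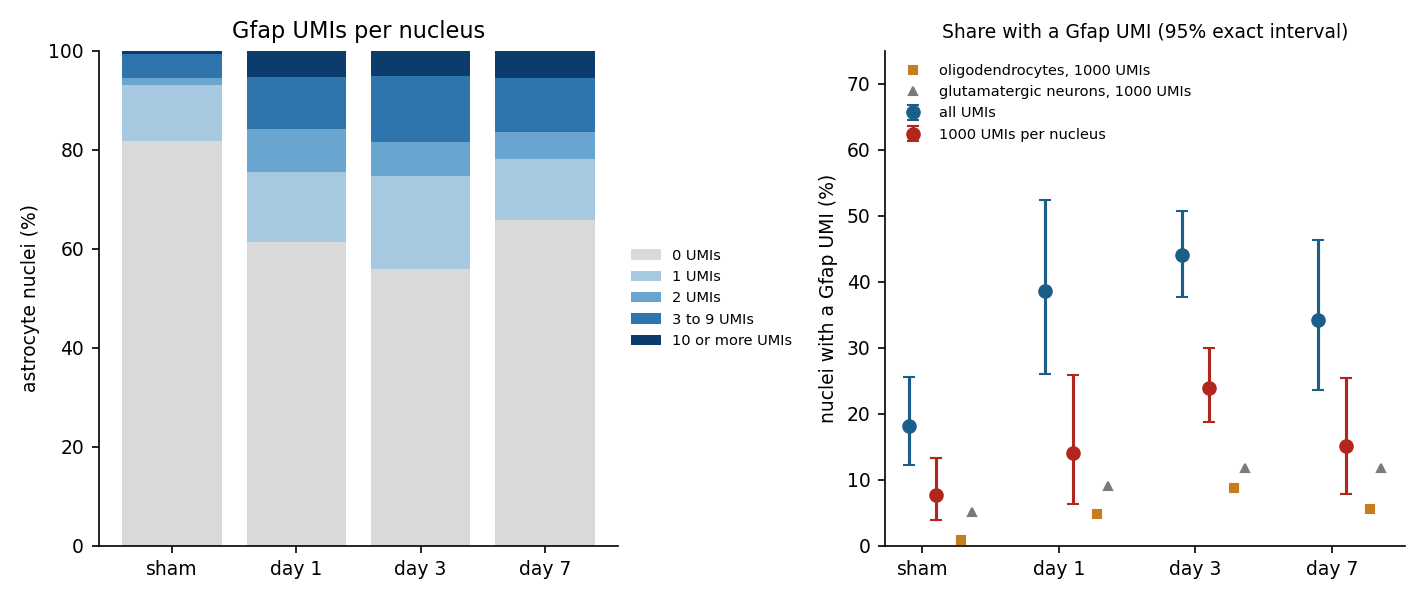
Left, share of astrocyte nuclei (y axis, %) by their number of Gfap UMIs in the 4 libraries (x axis); right, share with a Gfap UMI with 95% exact intervals, from all UMIs or 1000 UMIs per nucleus, beside oligodendrocyte and glutamatergic nuclei at 1000 UMIs. Nuclei with 0 Gfap UMIs make 81.8% in sham and 55.9% at day 3.

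Nuclei with at least 3 Gfap UMIs and nuclei with 0 were compared within each library as a description, since the split uses Gfap and deeper nuclei reach 3 UMIs more easily. At day 3, Vim was at 776 CPM in the former and 41.4 in the latter, 18.8-fold (11.5 to 32.4). Fabp7 differed by 8.84-fold (4.56 to 18.8), Mt2 by 8.14-fold (6.28 to 10.7) and S100a6 by 11.9-fold (6.57 to 23.2). In sham the ratios were 7.42 (5.06 to 10.95) for Mt2 and 7.26 (2.73 to 20.5) for Fabp7, over 8 nuclei with Gfap of which 1, of 34732 UMIs, gave the largest part of the 87178 UMIs. The spread between those nuclei is not in these intervals. S100a6 in sham was 1 UMI against 3. Vim in Gfap-bearing nuclei gave 57.4 CPM in sham, 108 at day 1, 776 at day 3 and 218 at day 7, with the sham value from 5 UMIs, all in 1 nucleus, and the day 3 value from 184.

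Housekeeping genes differed in how they went with Gfap. Slc7a10, a neutral amino acid exchanger of grey matter astrocytes, gave 115 CPM in sham, 173 at day 1, 156 at day 3 and 164 at day 7 in nuclei with Gfap and 166 CPM in sham, 107 at day 1, 172 at day 3 and 203 at day 7 in those without, and the interval of the ratio included 1 in each library. Slc1a2 was higher with Gfap in each library, 8718 CPM in sham, 10983 at day 1, 7237 at day 3 and 12395 at day 7 against 4867 CPM in sham, 2952 at day 1, 4859 at day 3 and 4097 at day 7, and so was Glul. The nuclei with Gfap also held more mitochondrial RNA, 3.72%, 1.61%, 4.75% and 4.72% of UMIs in sham, day 1, day 3 and day 7, against 0.743%, 0.673%, 0.746% and 0.651%. The genes lower with Gfap at day 3 included the neuronal genes Lrrtm4 and Dpp6, and the nuclei without Gfap held 457, 2855, 1358 and 1248 CPM of interneuron markers against 551, 195, 160 and 127 CPM. The part of either in the differences was not tested.

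**Figure D5:**
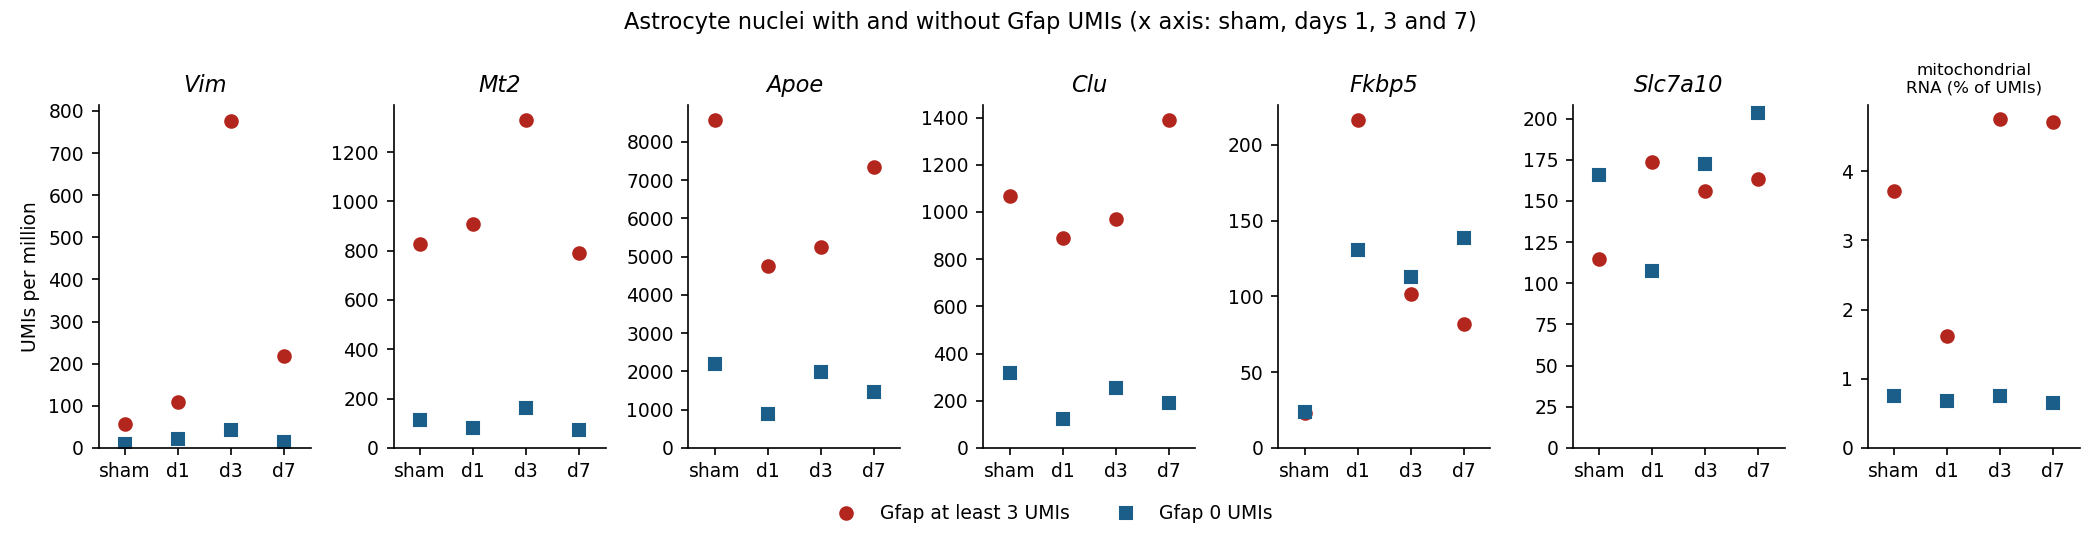
Levels (y axis, CPM; in the last panel % of UMIs) in astrocyte nuclei with at least 3 Gfap UMIs (circles) and 0 Gfap UMIs (squares), in the 4 libraries (x axis), as 1 sum for each group. Vim, Mt2, Apoe, Clu and mitochondrial RNA are higher with Gfap in each library, while Fkbp5 and Slc7a10 are not higher in each.

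The regional makeup of the nuclei was alike in the 4 libraries. By 9 telencephalic genes (such as Lhx2 and Mfge8) against 11 genes of astrocytes outside the telencephalon (such as Agt, Slc6a11 and Sparc), at 1000 UMIs per nucleus, 63.6% of the sham nuclei were telencephalic (exact interval 55.2 to 71.5). The share was 64.9% (51.1 to 77.1), 60.5% (54.0 to 66.8) and 63.0% (50.9 to 74.0) in the day 1, day 3 and day 7 nuclei. Non-telencephalic nuclei made 15.4%, 19.3%, 14.3% and 15.1%, and the rest were ties. With all UMIs, Gfap in telencephalic nuclei was 165 CPM in sham, 183 at day 1, 545 at day 3 and 374 at day 7, so the day 3 and day 7 levels were found within them. In the 23, 8, 31 and 12 non-telencephalic nuclei it was 52.4, 1115, 884 and 87.8 CPM, from 4, 31, 93 and 4 UMIs. Telencephalic Fkbp5 was 27.2, 161, 134 and 125 CPM.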

How the data were processed

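Single nuclei of 4 pooled forebrain samples (sham control, 1, 3 and 7 days after MCAO) were sequenced by a droplet method with UMIs. The authors aligned the reads with STAR 2.7.3a to GRCm38, and the deposited matrices hold raw UMI counts per gene and barcode, with intronic reads counted. The authors then removed empty droplets and free RNA for their own analysis, while the deposited counts used here precede those steps. The strand setting of the counting is not given in the sources used here, so overlapping genes are uncertain.

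Of 46983 gene rows 46488 matched GENCODE positions. Barcodes with more than 1000 UMIs were kept, astrocytes were taken by the marker rule, no doublet caller was run, and nuclei that also met another class were removed as an alternative. Counts were summed over astrocyte nuclei of a library and divided by their total (CPM). Ratios to sham carry 95% intervals conditional on the summed counts, and shares carry exact Clopper-Pearson intervals, and neither covers variation between animals. With 1 library a group, no test was run. Genes with a mean of at least 30 CPM were compared, and sums under 3 UMIs were set to 3 in log2 ratios. Named genes were the 8 highest and 8 lowest log2 ratios per day among genes counted in at least 10% of astrocyte nuclei of the higher library with no nucleus holding over 25%, leaving out the rule's genes, plus list members past 2-fold and the best known members of lists. The members and lists were chosen with earlier results of these data known. Free RNA was read from barcodes of 100 to 1000 UMIs, since the range of 10 to 100 UMIs planned first held too few. Python 3.11.15, numpy 2.4.6, scipy 1.17.1 and pandas 2.3.3 were used, and the ratio code was tested on simulated data. A few list members are not reported here.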

Additional observations from a re-analysis of the deposited data

How the results depend on the processing

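With 1 library a group leaving out a replicate was not done, since none would remain. No paired analysis was possible because each group was 1 library and the labels give no shared replicate numbers. Intervals cover counting error only, and the depth of 401321 to 892862 astrocyte UMIs a library limits genes near 30 CPM most. Over all settings 1014 of the single-gene values stayed within their counting interval, 156 moved beyond it and 30 were counted as reversed. Of list medians 952 were counted as kept, 48 as moved and 2 as reversed. The reversed counts do not hold every change of sign. The day 1 cholesterol and lipid median, counted as moved, went from -0.39 to 0.32 in nuclei of 2000 to 5000 UMIs. The day 1 filament median, counted as kept, went from -0.11 to 0.01 in nuclei of more than 2000 UMIs. Apoe at day 3 went from log2 -0.16 to 0.16 with thinned nuclei and is not among the 30. The nuclei of 2000 to 5000 UMIs, the removal of a fixed number of free UMIs and of the deepest nucleus were chosen after seeing the data. Where values moved, the cause was not tested, except that a level filter changes how many genes are compared and that thinning lowers the counts.

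Marker UMIs of at least 1% took 4.63%, 2.74%, 4.45% and 2.63% of barcodes in sham, day 1, day 3 and day 7. Genes at least 2-fold lower at day 3 were then 167, higher at day 7 198 and lower at day 7 497, and Thbs4, day 1 was at log2 0.91. Without nuclei that also met another class, the day 1 medians of the water, ion and gap junction list and of receptors were -0.088 and 0.026.

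With nuclei thinned to 1000 UMIs, genes at least 2-fold higher at day 1 were 904, those higher and lower at day 3 were 356 and 416, and those higher at day 7 were 483. The day 1 median of water, ions and gap junctions was -0.14. At day 1 the log2 ratios were 0.59 for Cmya5, day 1, 0.10 for Mal, day 1, 0.69 for Mlc1, day 1, 1.33 for Thbs4, day 1 and Id1, day 1, 0.33 for B2m, day 1, 0.0051 for Tsc22d3, day 1 and 0.91 for Myoc, day 1. Later ones were 0.56 for Flrt3, day 7 and Myoc, day 7, 0.27 for Myoc, day 3, -0.035 for Tgfbr1, day 3 and -0.030 for Tgfbr1, day 7. The thinned sums held 143000 UMIs in sham and 57000 at day 1, so sums both set to 3 UMIs give 1.33. Thbs4 is such a case, with a UMI in 2 thinned sham nuclei and in 0 of day 1. The part of the floor in the other reversals and in the gene counts was not tested. The share of nuclei with a Gfap UMI was 7.69%, 14.04%, 23.9% and 15.1%. With all UMIs in place of 1000, telencephalic nuclei were 76.9%, 84.2%, 79.8% and 76.7%.

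With equal weight of nuclei, the day 1 median of water, ions and gap junctions was -0.17 and Id1, day 1 was at 0.28. With free RNA subtracted in proportion, genes at least 2-fold lower at day 1 were 478, higher and lower at day 3 194 and 189, and higher and lower at day 7 218 and 434, and Mal, day 1 was at 0.45 and Ubb, day 7 at 0.61. With a fixed free-RNA count removed per nucleus, 140 genes were at least 2-fold lower at day 3. Without the top nucleus of each gene, 99 genes were higher at day 1, 50 lower at day 3 and 83 higher at day 7, the day 3 filament median was 2.84 and Myoc, day 3 was at 0.70. Without the deepest nucleus of each library, the day 1 median of water, ions and gap junctions was -0.23, and Myoc, day 1 and Myoc, day 3 were at 1.08 and 1.89.

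In nuclei of 2000 to 5000 UMIs, 624 genes were higher at day 1, 226 higher and 243 lower at day 3, and 320 higher and 549 lower at day 7. The filament median at day 7 was 0.12, and the day 1 medians of water, ions and gap junctions and of cholesterol and lipids were -0.012 and 0.32. At day 1 Thbs4, day 1 was at 1.39, B2m, day 1 at 0.22, Id1, day 1 at 0.99, Mfge8, day 1 at 0.39, Myoc, day 1 at 0.58 and Crym, day 1 at -0.86. Later, Pde10a, day 3 was at 0.035, C4b, day 7 at -0.0060, Tgfbr1, day 7 at -0.33 and Slc39a14, day 7 at -0.27. A mean of at least 10 CPM gave 638 higher and 937 lower genes at day 1, 418 and 439 at day 3 and 533 and 899 at day 7, and a median of -0.40 for the A1 list at day 3. A mean of at least 100 CPM gave 86 and 34, 19 and 14, and 23 and 22.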

Other observations

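A few astrocyte nuclei carried genes that the others lacked. At day 1, 1 nucleus of 6854 UMIs, with 12 Gfap UMIs, held all 17 UMIs of Iigp1, an interferon-induced GTPase, all 6 of Gbp2 and 7 of the 8 of Cxcl10 in the astrocyte nuclei of that library. In sham these 3 genes gave 1, 0 and 1 UMIs, and at day 3 they gave 2, 4 and 1.

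Myoc, which encodes myocilin and is known from fibrous and marginal astrocytes, gave 68 UMIs in sham, 10 at day 1, 40 at day 3 and 1 at day 7. In sham 61 of the 68 came from the deepest nucleus, of 34732 UMIs and 35 Gfap UMIs, and at day 3 the nucleus with 13 C3 UMIs held 23 of the 40. Top2a, a gene of dividing cells, gave 9 UMIs in 5 nuclei at day 3, of which 1 nucleus held 5.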
